A study of Caenorhabditis elegans with 7 samples.

Results

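The early heat response of adult Caenorhabditis elegans is described here from the arrays at 2, 4 and 6 h after a shift from 25 °C to 30 °C, set against the only array taken at 0 h. These are 3 heated arrays and 1 baseline array, 4 of the 7 in the series, which runs to 12 h. Transcripts were not preselected: every probe or gene with a value on all 4 arrays was used, which gave 14491 features, 5804 of them named genes and 8687 unnamed probes. For each feature the mean of the 2, 4 and 6 h ratios minus the 0 h ratio was taken, and the heated arrays on either side of the baseline were counted.

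All groups are adult animals of the strain CF512, grown at 25 °C until adulthood, and all arrays carry a second channel with a reference RNA called HS1. As background, CF512 carries temperature-sensitive mutations in fer-15 and fem-1, so animals raised at 25 °C make no working sperm and hold no embryos of their own. The baseline animals carry the same sterility, so the comparison is one of sterile adults with sterile adults. The labels name no untreated sample taken alongside the later times, so hours at 30 °C and hours of adult age cannot be told apart. Each time is 1 array, no time has a replicate, and nothing in the labels says how many animals were pooled.

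When proteins unfold in the heat, the transcription factor HSF-1 binds heat shock elements and raises the genes for chaperones, among them the HSP70 family and the small heat shock proteins of the HSP-16 family, which hold unfolded proteins until they can be refolded. In adult worms the intestine is the main site of fat storage and fat breakdown, where acyl-CoA oxidases carry out the first step of peroxisomal β-oxidation. Carboxylesterases, which split esters of lipids and of foreign compounds, form a large family in worms.

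No label or header says which channel is on top of the deposited ratio. The HSP70 genes F44E5.4 and F44E5.5 had their lowest ratio at 0 h, and from this the ratio is read as worm RNA divided by reference RNA, its likely direction. If the sign were turned, every "higher" below would read "lower". Log base 2 is likewise taken from the range of the values, so folds hold only for that base.

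The baseline array had the widest spread in the series, and its correlation with the heated arrays was lower at later times. The SD of the log2 ratio over probes was 0.512, 0.497 and 0.498 at 2, 4 and 6 h, against 0.634 at 0 h. At 8, 10 and 12 h it was 0.533, 0.563 and 0.585. The correlation over probes with the 0 h array was 0.23, 0.03 and -0.02 at 2, 4 and 6 h. These 3 heated arrays correlated with each other at 0.29 to 0.34. The 2 h array correlated with the 8, 10 and 12 h arrays at 0.19, 0.13 and 0.06, so low values also occur between heated arrays. Probes are not independent replicates. The baseline cannot be left out, since it is the only one. Fewer features passed when the arrays were scaled to equal spread, as given below, and the cause of that was not tested. Whether the low correlations had a part in the calls was not tested. Of the cell type lists, 4 sperm genes had a median difference of 0.01. In the oocyte and germline list 2 cpg genes, matched by name only, stood at 0.08 (cpg-22) and 0.81 (cpg-18). Yolk protein, collagen and muscle genes had no named probe, so the labelled whole adult could not be checked against them.

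The first question was which transcripts stood apart from the baseline on all 3 heated arrays. The highest named differences were those of an HSP70 gene pair and of genes known mainly by sequence name. Among named genes, the lowest called differences were those of T16G1.7, a carboxylesterase-family pseudogene and a leukotriene A4 hydrolase relative, and an acyl-CoA oxidase gene was also among the lower ones. In RNA of whole animals, less RNA per cell and fewer cells of a type cannot be told apart. Of the 14491 features, 93 (0.642%) passed a limma adjusted p of 0.05 (Benjamini-Hochberg over all features), 45 higher (0.311%) and 48 lower (0.331%). Among the 5804 named genes 34 passed (0.586%), 20 higher (0.345%) and 14 lower (0.241%). At an unadjusted limma p under 0.05 there were 2051 features (14.2%). The other called features, 25 higher and 34 lower, were unnamed probes, with differences of 2.01 to 5.86 and of -3.38 to -1.94. Of the 93 called, 10 had a baseline that stood at a limit of the file, so their differences are bounds.

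Without any test, all 3 heated arrays lay above the baseline for 4750 features (32.8%) and below it for 4299 (29.7%). Among named genes alone these shares were 31.3% above and 30.8% below. All 3 differed by 1 log2 unit or more in 215 features above (1.48%) and 447 below (3.08%), and by 2 log2 units or more in 60 above (0.414%) and 60 below (0.414%). Only the largest differences leaned upward: 36 features had a mean difference of 3 or more, against 14 at -3 or less. At 2 log2 units the counts were 92 higher and 130 lower, and at 1 log2 unit 435 and 941. The median difference over all features was 0.03.

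**Figure D1:**
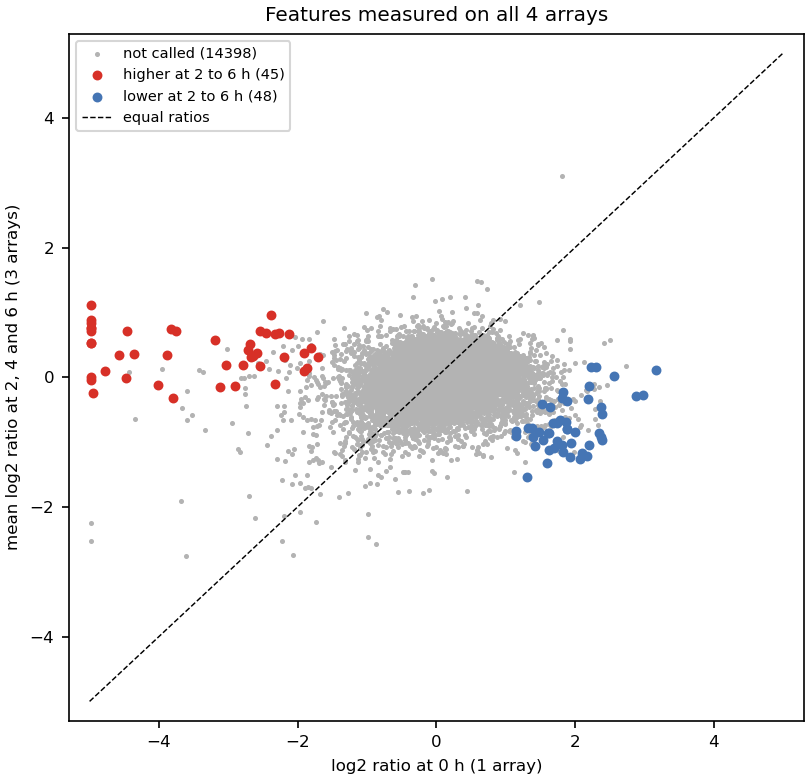
Mean log2 ratio at 2, 4 and 6 h (vertical axis, 3 arrays) against the log2 ratio at 0 h (horizontal axis, 1 array), with the array median subtracted. Each point is 1 of 14491 features; the 45 called higher have a 0 h ratio of -1.70 or less and the 48 called lower one of 1.15 or more, while the heated mean of both sets lies nearer 0.

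The called features were set apart by the 0 h ratio more than by the heated ones. The 45 higher features had median ratios of 0.32, 0.51 and 0.40 at 2, 4 and 6 h, against a median of -3.12 at 0 h. The 48 lower features had medians of -0.69, -0.71 and -0.91 at 2, 4 and 6 h, against 1.85 at 0 h. Among the 20 named higher genes, heated ratios ran from -0.63 to 1.64 and baseline ratios from -4.98 to -1.87. Among the 14 named lower genes, heated ratios ran from -1.81 to 0.31 and baseline ratios from 1.31 to 2.38. The heated and baseline ranges did not overlap in either set. The test selects features whose heated values lie close together and far from the 0 h ratio. The 0 h array also had the widest spread, so all ratios in this paragraph are a description.

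The chaperone list, a set of name patterns, matched only F44E5.4 and F44E5.5 on named probes, and both were higher. They encode heat-inducible members of the HSP70 family. F44E5.4 had ratios of -4.98, 0.91, 1.64 and 0.80 at 0, 2, 4 and 6 h, so the 3 heated values lay close to each other and the baseline far below them. Its heated mean was at least 6.10 log2 units above the baseline (SE 0.39, n = 3 arrays against 1; limma adjusted p = 0.00786), or at least 68.5-fold. F44E5.5 had ratios of -4.98, 0.83, 1.29 and 0.37, a difference of at least 5.82 (SE 0.40; limma adjusted p = 0.00857). Both differences are lower bounds, because the file stops at -5 and both baselines stood at that limit. The genes are adjacent and near-identical, the probe sequences were not analysed here, and since this pair set the direction of the ratio, their being higher is an assumption and not a result.

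Both HSP70 genes were highest at 4 h and lower again at 6 h. Later they stood at 0.10 and 0.12 at 8 h, -1.19 and -1.02 at 10 h, and -0.61 and -0.01 at 12 h, all still far above the baseline. Early minus late was 1.69 for F44E5.4 (SE 0.35) and 1.13 for F44E5.5 (SE 0.35), which did not pass (limma adjusted p = 0.260 and 0.334). T14G8.3 and T24H7.2, genes for GRP170-like members of the HSP70 family, are named on the array by sequence name and fall outside the list and the rule for named genes; they were added after their values were seen. T14G8.3 had ratios of 0.04, -0.10, 0.39 and 0.59 at 0, 2, 4 and 6 h (difference 0.26, SE 0.35; limma adjusted p = 0.778), and T24H7.2 ratios of -0.24, -0.06, -0.03 and 0.56 (difference 0.40, SE 0.35; limma adjusted p = 0.658).

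Y46H3A.4 had the most even heated values among the named genes with a difference above 4. Its ratios were -3.82, 0.88, 0.59 and 0.77 at 0, 2, 4 and 6 h, a difference of 4.56 (SE 0.27; limma adjusted p = 0.0073), and its 2 probes gave 4.85 and 4.27. The gene next to it, Y46H3A.5, had ratios of -1.91, 0.12, 0.67 and 0.34, a difference of 2.28 (SE 0.31; limma adjusted p = 0.0489), with 2.20 and 2.36 from its 2 probes. In the reference gene order of chromosome V, Y46H3A.4 lies 2 genes from hsp-16.41 and 3 from hsp-16.2, which encode small heat shock proteins and had no named probe.

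F57A8.1, the pseudogene Y38H6C.7 and C23G10.1 had baselines near the limit at which the HSP70 pair stood, without reaching it. F57A8.1 had ratios of -4.58, -0.54, 0.35 and 1.24 at 0, 2, 4 and 6 h, a difference of 4.93 (SE 0.64; limma adjusted p = 0.0429). Its heated values climbed by 1.77 between 2 and 6 h, the widest such gap among called named genes. Y38H6C.7 had ratios of -4.77, 0.16, -0.43 and 0.59, a difference of 4.88 (SE 0.42; limma adjusted p = 0.0176). C23G10.1 had ratios of -4.36, -0.06, 0.28 and 0.84, a difference of 4.71 (SE 0.39; limma adjusted p = 0.0176). All heated arrays lay at least 4.04 above the baseline in these 3 genes.

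F19B2.5 ran the other way in time. Its ratios were -3.76, 1.41, 0.82 and -0.10 at 0, 2, 4 and 6 h, highest on the first heated array (difference 4.47, SE 0.56; limma adjusted p = 0.0408). It went on to -0.32, -1.43 and -1.09 at 8, 10 and 12 h, below its early values and above its baseline. C18D4.4 was also highest at 2 h, with ratios of -2.65, 0.88, 0.15 and -0.03 (difference 2.98, SE 0.41; limma adjusted p = 0.0485), although its 8 h ratio was 1.38.

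The remaining higher genes had differences between 2.00 and 3.89. The pseudogene C01G10.13 had ratios of -4.01, -0.52, -0.31 and 0.46 at 0, 2, 4 and 6 h, and F21C10.1 ratios of -3.19, 0.15, 1.14 and 0.46 (differences 3.89 and 3.77; limma adjusted p = 0.0277 each). Y69A2AR.19, measured on 3 probes that gave 2.83 to 3.64, had ratios of -2.54, 0.44, 0.85 and 0.87 (difference 3.26, SE 0.30; limma adjusted p = 0.0183). Both patterns occur here: C01G10.13 climbed through all 3 heated arrays, while F21C10.1 was highest at 4 h.

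Y17D7C.2 had ratios of -2.46, 0.46, 0.53 and 1.07 at 0, 2, 4 and 6 h (difference 3.15, SE 0.34; limma adjusted p = 0.0274). B0222.5 had ratios of -2.32, 0.63, 0.80 and 0.58 (difference 2.99, SE 0.27; limma adjusted p = 0.0176), nearly level over the heated arrays. C23G10.10 (2.99), Y38H6C.8 (2.98), T28F4.4 (2.96), the pseudogene Y53F4B.8 (2.73), F46A8.5 (2.22) and dap-1 (2.00) made up the rest, with limma adjusted p from 0.0176 (T28F4.4) to 0.0489 (dap-1). dap-1 is named after the mammalian death-associated protein; its ratios were -1.87, 0.01, 0.09 and 0.32.

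**Figure D2:**
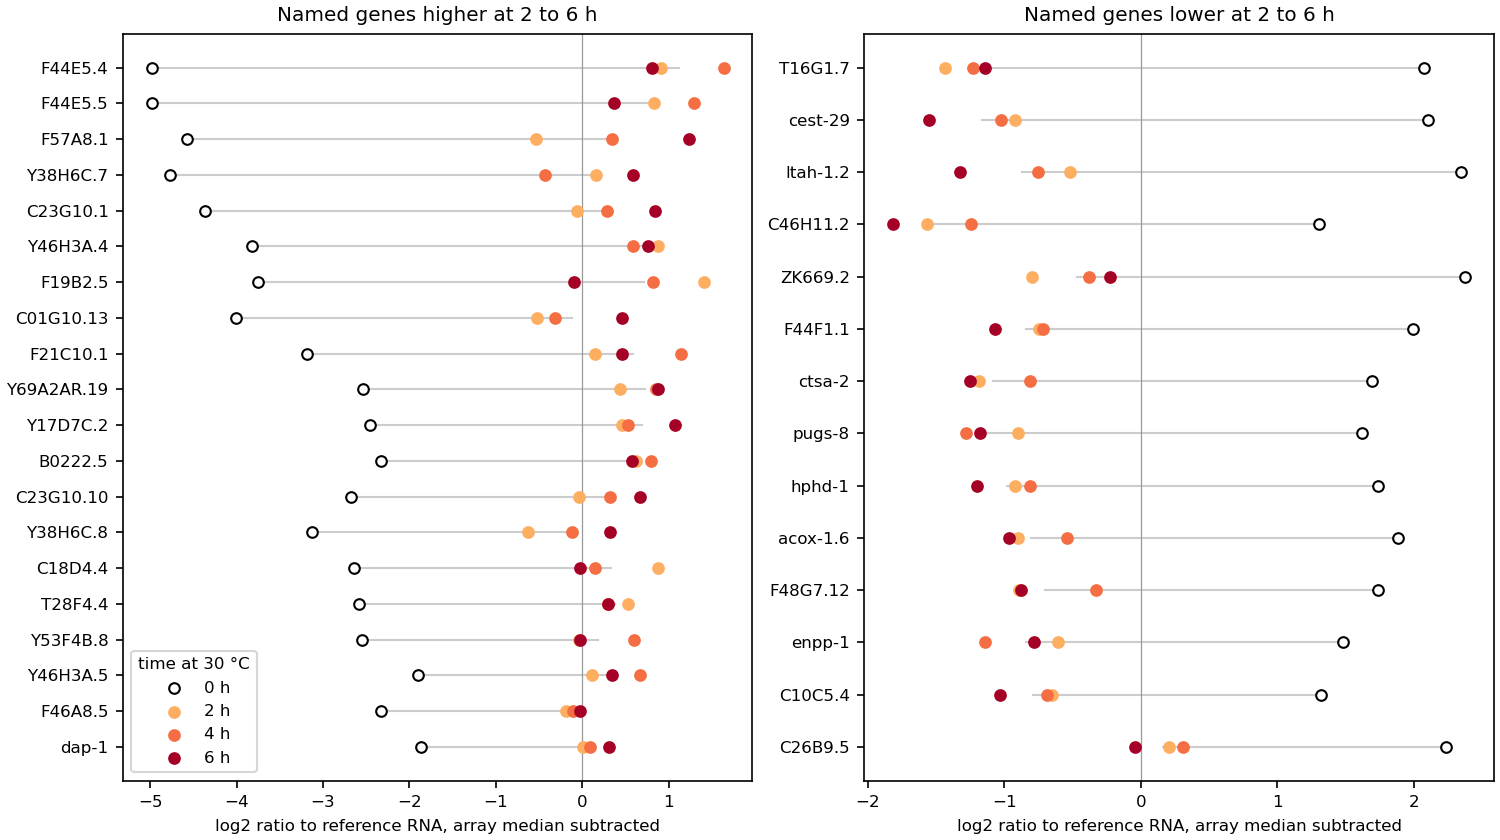
Log2 ratio to the reference RNA (horizontal axis, array median subtracted) of the 20 named genes called higher (left) and the 14 called lower (right) at 2, 4 and 6 h; each row is a gene, open circles are the 0 h array and filled circles the heated arrays, light to dark with time, joined by a line from the baseline to the heated mean. In every row the 3 heated points lie apart from the open one, by 6.10 on average for F44E5.4 and 2.00 for dap-1.

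On the lower side, T16G1.7 had ratios of 2.07, -1.43, -1.23 and -1.14 at 0, 2, 4 and 6 h. Its heated mean was 3.34 log2 units below the baseline (difference -3.34, SE 0.27; limma adjusted p = 0.0174), the lowest among named genes, and the heated values lay within 0.29 of each other. Nearby genes of the same clone lay on the same side: the adjacent T16G1.6 differed by -2.69 (limma adjusted p = 0.0517) and T16G1.4 by -2.21 (limma adjusted p = 0.137), with all 3 heated arrays below the baseline in both, but neither passed. T16G1.7 went on to -2.32, -3.08 and -2.59 at 8, 10 and 12 h, an early minus late difference of 1.40 (SE 0.23; limma adjusted p = 0.210).

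Of the 3 measured acox genes, which encode acyl-CoA oxidases, acox-1.6 alone passed. It had ratios of 1.89, -0.90, -0.54 and -0.96 at 0, 2, 4 and 6 h, a difference of -2.69 (SE 0.30; limma adjusted p = 0.0277), so all heated arrays lay below the reference level and the baseline well above it. acox-3 had ratios of 1.99, -1.54, -0.50 and -1.44 (difference -3.15, SE 0.45; limma adjusted p = 0.0554), and acox-1.4 ratios of 1.36, -0.37, -1.04 and -1.69 (difference -2.39, SE 0.50; limma adjusted p = 0.125). Neither of these passed. lonp-2, for a peroxisomal Lon protease, had ratios of 1.32, -0.66, -0.26 and -1.25 (difference -2.04; limma adjusted p = 0.116). hach-1, for a hydroxyacyl-CoA hydrolase, had ratios of 0.44, 0.56, 0.30 and -0.19 and overlapped its baseline. In the list for fatty acid oxidation and the peroxisome 5 genes were measured. With limma 1 was lower, 0 higher and 4 did not pass. At an unadjusted limma p under 0.05 there were 4, against 14.2% of all features. The list median difference was -2.39 against 0.03 for all features.

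hphd-1, for a hydroxyacid-oxoacid transhydrogenase that works with hach-1 in the breakdown of propionate in worms, had ratios of 1.74, -0.92, -0.81 and -1.20 at 0, 2, 4 and 6 h. Its difference was -2.71 (SE 0.29; limma adjusted p = 0.0258). In the amino acid list, where it was placed, gldc-1 (glycine decarboxylase) had a difference of -1.79 and oatr-1 (ornithine aminotransferase) one of -0.02, so 1 of 3 was lower and 2 did not pass.

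The carboxylesterase-family pseudogene cest-29 had ratios of 2.10, -0.92, -1.02 and -1.55 at 0, 2, 4 and 6 h, a difference of -3.27 (SE 0.34; limma adjusted p = 0.0258). It was the only one of 24 measured family members to pass, of 32 with a named probe; 23 did not pass and 0 were higher. The family median was -0.71, and all 3 heated arrays lay below the baseline in 16 members and above it in 3, against 30.8% and 31.3% of named genes. At an unadjusted limma p under 0.05 there were 12 members, against 14.2% of all features. cest-1.2 came next in size, with ratios of 1.55, -0.13, -0.07 and -1.38 (difference -2.08, SE 0.55; limma adjusted p = 0.186). Its low value came with the 6 h array, and the family medians at 2, 4 and 6 h against 0 h were -0.61, -0.76 and -0.83. Related family members can share probe signal, which the files do not let be separated.

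ltah-1.2, a relative of leukotriene A4 hydrolase, had ratios of 2.34, -0.52, -0.75 and -1.33 at 0, 2, 4 and 6 h, a difference of -3.21 (SE 0.37; limma adjusted p = 0.0313). C46H11.2 had ratios of 1.31, -1.56, -1.24 and -1.81 (difference -2.85, SE 0.32; limma adjusted p = 0.0277), the lowest heated mean among the called named genes. ctsa-2, a cathepsin A relative, had ratios of 1.70, -1.19, -0.81 and -1.25 (difference -2.78, SE 0.30; limma adjusted p = 0.0274). In all 3 genes every heated array differed from the baseline by -2.51 or less.

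ZK669.2 (-2.84), the pseudogene F44F1.1 (-2.84), pugs-8 (-2.74), F48G7.12 (-2.43), enpp-1 (-2.33), C10C5.4 (-2.11) and C26B9.5 (-2.07) were the other lower genes, with limma adjusted p from 0.0256 (F44F1.1) to 0.0495 (C10C5.4). enpp-1 encodes a nucleotide pyrophosphatase/phosphodiesterase; its ratios were 1.48, -0.61, -1.14 and -0.78 at 0, 2, 4 and 6 h. ZK669.2 was lowest at 2 h, with ratios of 2.38, -0.80, -0.38 and -0.22, and pugs-8 and enpp-1 at 4 h.

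Some named genes with large differences did not pass. ZK816.3 had ratios of -4.43, -1.71, 0.95 and 1.03 at 0, 2, 4 and 6 h (difference 4.52, SE 1.06; limma adjusted p = 0.150). F08G2.5 had ratios of -4.34, -1.82, -0.79 and 0.70 (3.70, SE 0.87; limma adjusted p = 0.151), dpsm-1 ratios of -3.36, -0.72, 0.06 and 0.92 (3.45, SE 0.60; limma adjusted p = 0.0836). In these genes the ratio was higher at 6 h than at 2 h, and a mean over the 3 times counts that climb as error. For ZK816.3, and for R11A5.3 below, most of the climb came between 2 and 4 h. F57A8.1, with a climb of 1.77, passed. R11A5.3 (3.20; limma adjusted p = 0.120) and M01E5.2 (2.93; limma adjusted p = 0.241) shared the pattern, with 2 h ratios of -1.54 and -2.13 and 6 h ratios of 0.08 and 0.42. Among the lowest that did not pass were F25D1.5 (-3.20; limma adjusted p = 0.0590), F28H7.3 (-2.80; limma adjusted p = 0.0836) and T03E6.8 (-2.77; limma adjusted p = 0.100).

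The next question was when within 2 to 6 h the ratios were extreme. Each time is 1 array, so the order has no test. The 45 higher features peaked on the 2 h array in 10 cases, on the 4 h array in 13 and on the 6 h array in 22. The 48 lower features were lowest on the 2 h array in 13 cases, on the 4 h array in 7 and on the 6 h array in 28. Among the named higher genes, 13 of 20 had a 6 h ratio above their 2 h ratio, and among the named lower genes 3 of 14 did. Over all features, the number at 1 log2 unit or more above the baseline was 523 (3.61%) at 2 h, 632 (4.36%) at 4 h and 698 (4.82%) at 6 h. The number at 1 log2 unit or more below it was 937 (6.47%), 1157 (7.98%) and 1237 (8.54%) at the same times.

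Of the called named genes, F57A8.1, C01G10.13, Y38H6C.8 and C23G10.1 gained most between 2 and 6 h, by 1.77, 0.99, 0.95 and 0.90. The largest losses over the same span were those of F19B2.5 (1.41 at 2 h, -0.10 at 6 h), C18D4.4 (a change of -0.91), ltah-1.2 (-0.81) and cest-29 (-0.63). For the last pair the loss carried them further from the baseline, and for F19B2.5 and C18D4.4 back towards it.

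**Figure D3:**
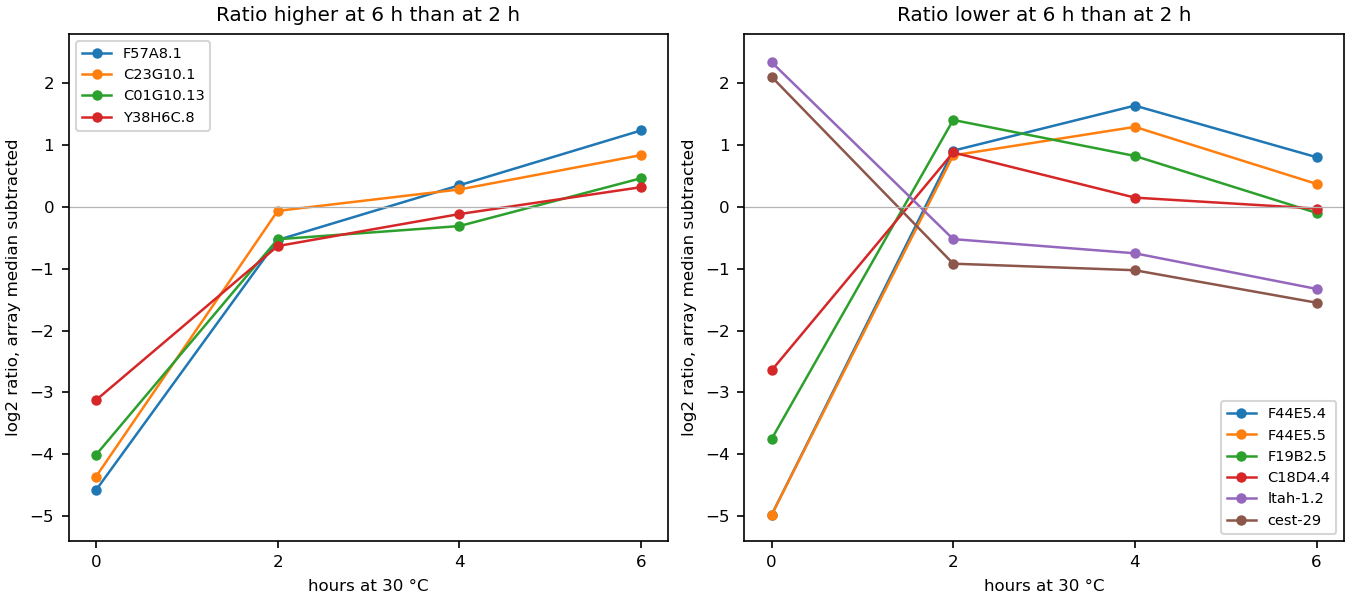
Log2 ratio (vertical axis, array median subtracted) at 0, 2, 4 and 6 h at 30 °C (horizontal axis, hours) of named genes past the threshold; each line is a gene and each point 1 array, with no replicate. Left, the 4 genes that gained most between 2 and 6 h, F57A8.1 by 1.77; right, the 4 that lost most (F19B2.5, C18D4.4, ltah-1.2 and cest-29, the last by -0.63), with the HSP70 pair F44E5.4 and F44E5.5.

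Whether the early hours differ from the late ones can be asked without the baseline array. With the 8, 10 and 12 h arrays as the other group, limma called 0 of 13478 features (0%), 1467 had an unadjusted p under 0.05 (10.9%), and the lowest adjusted p was 0.210. Of the 45 features called higher, 44 could be compared with the late arrays, and their median early minus late difference was 0.31, with 31 above 0. Of the 48 called lower, 39 could be compared, with a median of 0.18 and 28 above 0. The median over all features was -0.009. An unadjusted limma p under 0.05 was reached by 24 of the 44 and 11 of the 39, against 10.9% of all features. The calls already used the early arrays, so these counts are a description. B0222.5 was lower at each later time, with ratios of 0.09, -0.82 and -1.12 at 8, 10 and 12 h (early minus late 1.29, SE 0.30; limma adjusted p = 0.260), whereas Y38H6C.7 stayed at 0.70, 0.58 and 0.70.

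The gene groups were compiled with earlier results of these data in view, and are described by counts and medians. Outside the groups above, dap-1 was the only other member of a list to pass. It stands in the list of proteasome, ubiquitin and proteases, but is neither a protease nor a proteasome subunit. The other 7 members of that list did not pass, and its median was -0.05, which turned to 0.02 with centring within print blocks and to 0.0017 with no centring. No other list median changed sign with these, with quantile normalization or with equal spread. psme-4, a proteasome activator, had ratios of -0.36, 0.11, 0.23 and 0.41 at 0, 2, 4 and 6 h (difference 0.61; limma adjusted p = 0.391), and lgmn-1, a relative of the lysosomal protease legumain, ratios of 1.58, 0.33, -0.53 and -0.33 (difference -1.75; limma adjusted p = 0.137).

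The 11 measured nucleolar factors of ribosome assembly had a median difference of 0.41, with all 3 heated arrays above the baseline in 7 and below it in 1, against 32.8% and 29.7% of all features. With limma 0 of the 11 passed and 3 had an unadjusted p under 0.05, against 14.2% of all features. shq-1, which helps assemble box H/ACA ribonucleoproteins, had ratios of -0.40, 0.24, 0.63 and 0.53 at 0, 2, 4 and 6 h (difference 0.86; limma adjusted p = 0.267), and utp-11, of the small subunit processome, ratios of -0.52, 0.60, 0.25 and 0.12 (difference 0.84; limma adjusted p = 0.298). The 8 measured translation factors had a median difference of 0.24, with 6 above the baseline on all 3 arrays (32.8% of all features), 0 past the limma threshold and 0 at an unadjusted p under 0.05. The 7 DNA replication genes had a median of 0.23, 5 of them above on all 3 arrays (again against 32.8%), 0 past the threshold and 1 at an unadjusted limma p under 0.05. pold-2, a subunit of DNA polymerase delta, led them with a difference of 0.88 (limma adjusted p = 0.260).

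Immune effectors had a median of -1.08 over 5 measured genes, 4 of them below the baseline on all 3 arrays (29.7% of all features), 0 past the limma threshold and 3 at an unadjusted p under 0.05 (14.2% of all features). The infection response genes irg-8 (-1.61; limma adjusted p = 0.250) and irg-6 (-1.13; limma adjusted p = 0.264) were lowest. The 19 measured PALS genes, a family linked in worms to the response to intracellular pathogens, had a median of -0.16, with 3 above and 8 below on all 3 arrays (32.8% and 29.7% of all features), 0 past the limma threshold and 2 at an unadjusted p under 0.05. pals-26 went against the family median, with ratios of -1.36, -0.78, 0.77 and -0.01 at 0, 2, 4 and 6 h (difference 1.35; limma adjusted p = 0.366). Neuropeptide genes had a median of -0.42 over 10, with 0 past the limma threshold and 2 at an unadjusted p under 0.05, led by nlp-91 (-1.40; limma adjusted p = 0.231).

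Median differences were 0.01 for respiratory chain genes (26 measured), 0.03 for secretory pathway genes (21) and 0.07 for solute carriers (39). For splicing factors (9) the median was 0.16, and for purine metabolism genes (5) -0.18. In each of these lists 0 members passed the limma threshold. At an unadjusted limma p under 0.05 there were 0, 0, 6, 1 and 0 in that order, against 14.2% of all features. mfsd-8.4, a solute carrier, had ratios of 1.99, 0.65, -0.09 and 0.09 at 0, 2, 4 and 6 h (difference -1.78; limma adjusted p = 0.116). In the purine list, pnp-1 (purine nucleoside phosphorylase) had ratios of 1.26, 1.11, 0.34 and -0.60 and was near its baseline at 2 h only. Lists with fewer than 3 measured genes gave single values: ugt-66, for a UDP-glucuronosyltransferase, -1.05 (limma adjusted p = 0.329), the acyl-CoA synthetase genes acs-25 and acs-24 -0.54 and 0.07, and the ribosomal protein gene rpl-37.1 0.08.

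**Figure D4:**
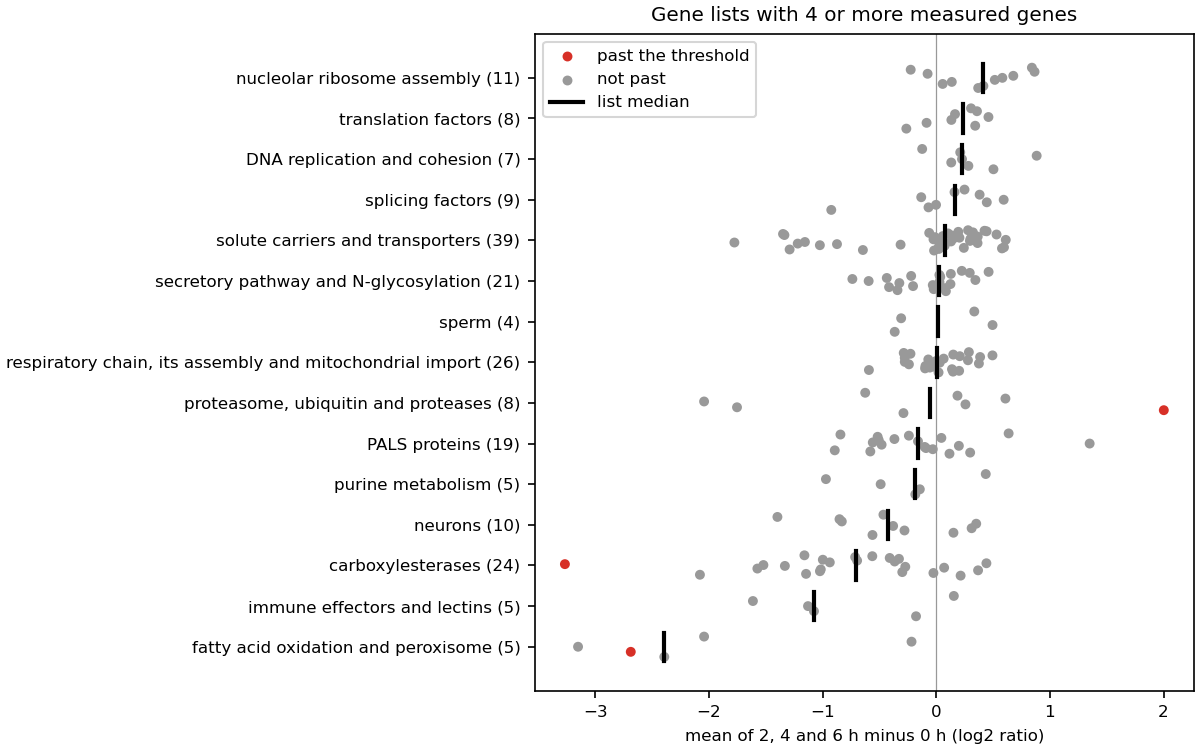
Mean of 2, 4 and 6 h minus 0 h (horizontal axis, log2 ratio) for each gene of the lists with 4 or more measured genes, their number in brackets; red points passed the limma threshold, grey points did not, and black bars are list medians. The medians run from 0.41 (nucleolar ribosome assembly) to -2.39 (fatty acid oxidation and peroxisome), and 1 point is red in each of the proteasome, carboxylesterase and fatty acid oxidation lists.

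Several of the higher genes were chromosomal neighbours. Of the 20 higher named genes, 12 had another higher gene within 5 genes in the reference order, where 0.345% of named genes were called higher. Of the 14 lower ones, 0 had another lower gene that near (0.241% called lower), and the difference between the sets was not tested. These percentages are shares of single genes called, not of genes with a called gene among several neighbours. They are therefore not a measure like the 12 of 20 or the 0 of 14, where each pair also counts for both its genes. Adjacent pairs were F44E5.4 with F44E5.5, Y38H6C.7 with Y38H6C.8, C23G10.1 with C23G10.10, and Y46H3A.4 with Y46H3A.5. T28F4.4 and dap-1 lay 2 genes apart and F21C10.1 and B0222.5 lay 5 apart. Chromosome V held 11 of the 20 higher genes and 4 of the 14 lower ones, with 20.4% of the named genes tested. Whether neighbours share probe signal was not tested.

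Measured neighbours within 5 genes that were not called themselves leaned the same way. Next to higher genes, all 3 heated arrays lay above the baseline in 27 of 44 (61.4%), with a median difference of 0.25, against 31.3% of all named genes. Next to lower genes, all 3 lay below in 25 of 50 (50%), with a median of -0.26, against 30.8%. F46A8.3 (1.70; limma adjusted p = 0.0608) and F46A8.4 (1.31; limma adjusted p = 0.241) beside F46A8.5, and C10C5.3 (-1.41; limma adjusted p = 0.120) and C10C5.5 (-1.63; limma adjusted p = 0.0962) beside C10C5.4, are examples chosen after their values were seen. Other neighbours of the same genes went the other way. F46A8.7, next to F46A8.5, differed by -0.36 and F46A8.2, 4 genes from it, by -0.21. Within 5 genes of C10C5.4, F56D5.2 differed by 0.33. The shares above are a description of these arrays.

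By annotation, 17 of the higher and 12 of the lower named genes are protein-coding. The others, 3 higher and 2 lower, are pseudogenes, and pseudogenes were 5.91% of the named genes tested.

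The counts rest on few arrays and on the scaling. When each array was scaled to the same median absolute deviation, 21 features were higher and 4 lower (84% higher, against 48.4% as reported), and quantile normalization left 11 higher and 0 lower (100% higher; 1361 features had an unadjusted limma p under 0.05). Without the 4 h array limma called 11 higher and 0 lower (1644 at an unadjusted p under 0.05), without the 2 h array 24 and 6, and without the 6 h array 40 and 36. F44E5.4, F44E5.5 and Y46H3A.4 kept their call in every alternative that gave them a value, 12, 12 and 13 in number. Setting values at the limits to missing removed the baseline of F44E5.4 and F44E5.5, so their call could not be checked there. Of the 34 called named genes, 9 kept their call in 10 or more. T16G1.7 kept it in 11, and lost it with quantile normalization and without the 4 h array. A permutation of 3 arrays against 1 cannot give an exact p below 0.25, so the limma p-values lean on the spread shared over features and on the assumption that the baseline array varies like the heated ones.

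**Figure D5:**
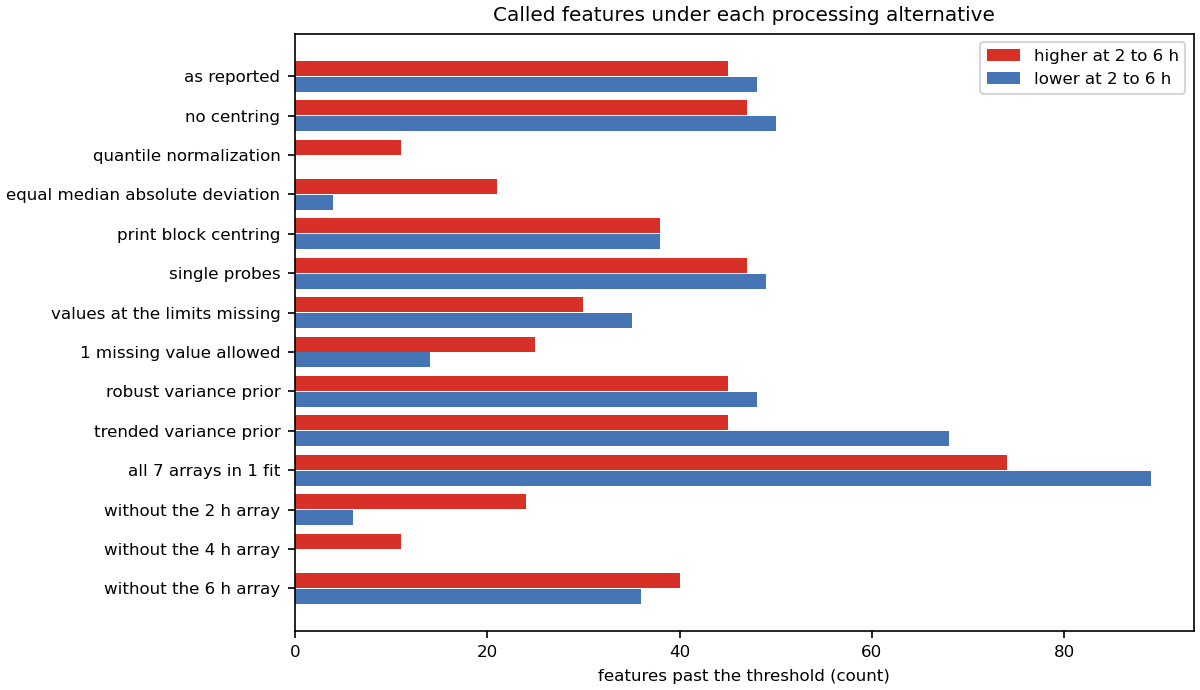
Number of features past the limma threshold (horizontal axis), higher (red) and lower (blue) at 2, 4 and 6 h than at 0 h, as reported and under 13 alternatives (rows). The lower count runs from 0, with quantile normalization and without the 4 h array, to 89 with all 7 arrays in 1 fit; the higher count runs from 11 to 74.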

How the data were processed

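RNA of 7 samples was measured on 2-colour arrays against a common reference, and 4 arrays (0, 2, 4 and 6 h) are used here, with the 3 late ones for contrast. The table deposited by the authors holds 1 log2 ratio per probe and array; its base, direction and normalization, and the spot signal over background, were not stated in any label or header. Of 19200 probes, 7900 carry 1 gene name and 11300 none; 7872 names were updated from the WBcel235 gene table and 28 kept. That table gave names, gene types and gene order only.

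Each array was centred on its median and the probes of a gene were averaged. limma 3.58.1 (lmFit, eBayes) in R 4.3.3 compared 3 heated arrays with 1 baseline array (2 residual degrees of freedom, Benjamini-Hochberg threshold 0.05), and 3 early with 3 late arrays; the scripts were tested on simulated data. Between 11.6% and 15.9% of probes had no value on an array, and only the number of arrays limits precision in a known way.

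The members, lists and rules were chosen with earlier results of these data known. Genes named are the 12 highest and 12 lowest called, 5 and 5 that did not pass, list members called or the 2 largest, 4 and 4 by 6 h minus 2 h, and the HSP70 pair; the other called names were added. A promoter motif search was planned but not run, as promoter sequences were not used here.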

Additional observations from a re-analysis of the deposited data

How the results depend on the processing

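No paired analysis was possible because no time has more than 1 array. Counts are features higher and lower at 2 to 6 h, 45 and 48 as reported. Quantile normalization changed them to 11 and 0, scaling to the same median absolute deviation to 21 and 4, allowing 1 missing value to 25 and 14, and a single fit of all 7 arrays to 74 and 89. With 1 of the heated arrays left out in turn, there were 11 to 40 higher and 0 to 36 lower. No centring, print block centring, single probes, values at the limits set to missing, and robust or trended variance priors stayed within 1.5 times of the reported counts. The cause of each shift was not tested, except that fewer arrays, more features or another set of features enter some fits. Early minus late gave 0 calls in each alternative run, with 944 to 1618 features at an unadjusted limma p under 0.05. Of the 34 called named genes, 0 changed sign in any of 13 alternatives, 3 kept their call in all that gave a value, and 34 kept it with no centring, 24 with print block centring, 9 after scaling to the same deviation, 3 after quantile normalization, and 7, 4 and 26 when the array at 2, 4 or 6 h was left out. Of 40 other named genes, 7 gained a call in some alternative and 2 near 0 turned sign: cpg-22 ran between -0.0425 (6 h array left out) and 0.194 (2 h array left out) (0.08 as reported) and acs-24 at -0.00117 with equal median absolute deviations (0.07 as reported).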

Other observations

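Y46H3A.4, Y46H3A.5 and T27E4.1, which lie beside the clusters of small heat shock genes, stood above the baseline on every heated array. So did 31.3% of all named genes. The hsp-16 genes had no named probe, and apart from Y46H3A.5 no gene within 5 of Y46H3A.4 was measured under its name. Beside hsp-16.41 and hsp-16.2 lay Y46H3A.4 and Y46H3A.5, both called. Beside the other cluster on chromosome V lay T27E4.1, 1 gene from hsp-16.11, 2 from hsp-16.49, 3 from hsp-16.48 and 4 from hsp-16.1. T27E4.1 had ratios of -2.11, -0.26, 0.41 and 0.43 at 0, 2, 4 and 6 h, a difference of 2.30 (SE 0.36; limma adjusted p = 0.0673), so it did not pass. It was chosen after its values were seen, and whether its probe picks up hsp-16 transcripts was not tested.

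Some named genes stood apart on 1 of the 3 early heated arrays, also chosen after their values were seen, and none of them has a test. F55D12.1 had ratios of -0.99, -1.16, 2.24 and -1.06 at 0, 2, 4 and 6 h and between -1.14 and -0.98 later, so only the 4 h array was high. F46F5.10 stood at -3.86 at 4 h and between -0.47 and -0.04 at 0, 2 and 6 h, then at -1.32 at 8 h with no value at 10 and 12 h. K09C6.8 stood at -3.67 at 6 h, at -0.20, 0.01 and 0.26 at 0, 2 and 4 h, and at -0.48, -0.95 and -0.21 at 8, 10 and 12 h. F16G10.13 stood at 1.82 at 2 h, and at -0.54, -0.38 and -0.09 at 0, 4 and 6 h, but again above its baseline at 8, 10 and 12 h (0.41, 1.08 and 0.87).

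T06E8.2, outside the rule for named genes, had ratios of -1.84, -0.34, 0.62 and 0.49 at 0, 2, 4 and 6 h (difference 2.10; limma adjusted p = 0.116).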
